A study of Mus musculus with 9 samples.

Results

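The noncoding RNAs Malat1, Neat1, Meg3, Rian, Mirg, Miat, Snhg11 and Kcnq1ot1 were followed library by library in motoneurons of the mouse spinal cord. They were taken by gene symbol, and all 8 of the 55401 genes in the count table were found and passed the filter on low counts, which left 15893 genes. The members were chosen by gene name with measured values in view, namely the level of Malat1 in the replicate 1 libraries against the others, so replicate 1 against the rest is given below as a description with no test.

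The study compared WT (wild-type) mice in 3 groups of 3 libraries: sham, untrained animals with SCI (spinal cord injury), and animals with SCI that received SBES, synergistic bidirectional electrical stimulation. The frequency was 10 Hz for SBES replicate 1, 15 Hz for replicate 2 and 20 Hz for replicate 3, a single library each. Motoneurons labelled with TRDA were drawn into glass electrodes from fresh slices 4 weeks after injury, and their RNA was sequenced by Smart-seq2, which copies whole transcripts from very small inputs. The labels name 3 mice per group without tying them to libraries, and how many neurons entered a library is not stated, so p-values measure the spread between these libraries, which may be partly technical.

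Total counts ran from 11821145 to 17675948 per library. Motor neuron markers were present in every library, with a summed level of 289 to 1228 CPM, counts scaled to a common library total after TMM adjustment, for 14 genes, beside 38911 to 110148 CPM for 16 oligodendrocyte markers, 13233 to 20622 CPM for 12 astrocyte markers and 976 to 4276 CPM for 12 microglia markers. No marker of these lists was at 0 in any library. Fewer cells of a type cannot be told apart from less RNA per cell. The columns of the 3 untrained libraries and of SBES replicate 1 could be matched to their labels only by elimination, on which all values of these 4 libraries depend.

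These RNAs are made by RNA polymerase II and, unlike most mRNAs, stay largely in the nucleus. Malat1 lies in nuclear speckles, which store splicing factors, and Neat1 is the scaffold of paraspeckles, which hold proteins such as Nono and Sfpq. Meg3, Rian and Mirg are read from the maternal copy of the imprinted Dlk1-Dio3 region, whose paternal copy gives the coding genes Dlk1, Rtl1 and Dio3. Kcnq1ot1 is the paternally expressed antisense RNA that silences neighbouring genes of the Kcnq1 region in cis, Miat is a nuclear RNA abundant in neurons, and Snhg11 is a host gene of small nucleolar RNAs with neuronal expression.

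In the mm10 assembly Malat1 is at chr19:5795690-5802672 on the minus strand, and Neat1 lies 22.0 kb from it at chr19:5824708-5845478 on the same strand. Malat1 and the long form of Neat1 end without an ordinary poly(A) tail, unlike the short form of Neat1: a genome-encoded A-rich tract pairs with U-rich stretches upstream, a fold that protects the 3′ end. That end is shown here because it is a sequence feature that these neighbours share, and their levels are compared below. In the windows, read from the GENCODE M21 transcripts, capitals mark the longest stretch common to both outside the tract (16 bases) and the tract motif AAAAGCAAAA, with T written for U. The Malat1 window is at chr19:5795972-5796041 and the Neat1 window at chr19:5824708-5824767, the last bases of the long transcript.
Malat1: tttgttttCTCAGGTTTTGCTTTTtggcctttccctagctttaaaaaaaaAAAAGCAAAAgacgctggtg
Neat1: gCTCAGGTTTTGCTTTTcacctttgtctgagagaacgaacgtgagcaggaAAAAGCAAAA
The motif on the transcribed strand was found in 1.12% of 141767 mouse transcripts. It occurred once in the longest Malat1, Neat1 and Snhg11 transcripts and not in those of the other members. The short and long forms of Neat1 share one row of the count table, so they were not separated.

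Promoters of 4 members are shown because Malat1, Meg3 and Snhg11 were the highest in replicate 1 while Rian, the neighbour of Meg3, was not. Each runs from 250 bases before to 50 bases after the RefSeq start in GRCm38.p6, the assembly called mm10. Letters in capitals are matches on either strand to TGACGT, the core of a cAMP response element (ACGTCA when on the other strand), to its full form TGACGTCA, which contains the core on both strands, to CCAAT and to TATAAA. The positions are chr19:5802623-5802922 on the minus strand for Malat1, chr12:109540746-109541045 on the plus strand for Meg3, chr2:158375463-158375762 on the plus strand for Snhg11 and chr12:109603695-109603994 on the plus strand for Rian.
Malat1: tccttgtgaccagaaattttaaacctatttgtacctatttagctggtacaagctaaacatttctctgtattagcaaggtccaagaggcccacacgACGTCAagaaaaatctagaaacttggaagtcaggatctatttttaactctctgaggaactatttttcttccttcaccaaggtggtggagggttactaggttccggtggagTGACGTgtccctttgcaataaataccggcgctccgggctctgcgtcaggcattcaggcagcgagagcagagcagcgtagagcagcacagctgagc
Meg3: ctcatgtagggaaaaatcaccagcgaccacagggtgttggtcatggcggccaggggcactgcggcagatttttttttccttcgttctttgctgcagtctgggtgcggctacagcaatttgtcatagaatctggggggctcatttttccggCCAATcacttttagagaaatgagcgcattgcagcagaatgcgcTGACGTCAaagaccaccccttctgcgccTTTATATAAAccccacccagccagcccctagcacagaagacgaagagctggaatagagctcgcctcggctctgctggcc
Snhg11: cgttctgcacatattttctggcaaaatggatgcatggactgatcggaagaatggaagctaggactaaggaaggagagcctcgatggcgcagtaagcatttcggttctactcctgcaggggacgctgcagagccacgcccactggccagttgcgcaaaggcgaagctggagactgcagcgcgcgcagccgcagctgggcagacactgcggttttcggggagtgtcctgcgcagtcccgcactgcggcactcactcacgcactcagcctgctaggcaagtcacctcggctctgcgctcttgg
Rian: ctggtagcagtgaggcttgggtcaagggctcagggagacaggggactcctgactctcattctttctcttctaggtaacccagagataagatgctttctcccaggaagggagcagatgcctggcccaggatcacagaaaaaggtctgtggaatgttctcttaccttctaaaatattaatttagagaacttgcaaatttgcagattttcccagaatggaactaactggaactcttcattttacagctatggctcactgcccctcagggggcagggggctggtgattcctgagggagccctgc
The first of the 2 Meg3 start windows in the RefSeq table, the one shown, held the full TGACGTCA, which 1.79% of 32817 mouse promoter windows of 300 bases contain, together with a CCAAT match (37.4% of windows) and 2 overlapping TATAAA matches (13.6% of windows). The Malat1 promoter held the core TGACGT at 2 places, on opposite strands, and 7.51% of windows hold at least 1. The Kcnq1ot1 promoter held 1 core match and 3 CCAAT matches. The Mirg window (chr12:109734731-109735030), whose RefSeq start lies inside the counted gene, held 1 CCAAT match. None of these letters were found in the windows of Snhg11, Rian or Miat, or in the second Meg3 window (chr12:109545148-109545447). Neat1 was not in the promoter table. The motifs were picked with these sequences in view, and a match is a description of letters, not a bound site.

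Malat1 was the most abundant of these RNAs in every library. Its level was 20834, 1409 and 1489 CPM in sham libraries 1, 2 and 3, 15296, 1100 and 466 CPM in untrained libraries 1, 2 and 3, and 6288, 752 and 1474 CPM in SBES libraries 1, 2 and 3. The 3 replicate 1 libraries stood above all 6 others, and without them the groups overlapped only in part, with 1 SBES library between the 2 sham libraries. By raw counts Malat1 was between the 4th and the 22nd gene of its library in replicate 1 and between the 56th and the 270th in the others.

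Neat1 shared with its neighbour the high replicate 1 libraries but not the order of the others. It measured 91.0, 39.0 and 29.5 CPM in sham, 125, 116 and 39.4 CPM in untrained and 120, 32.9 and 44.7 CPM in SBES, in the order of replicates 1, 2 and 3. Untrained replicate 2, which was low in Malat1, was nearly as high in Neat1 as the replicate 1 libraries of the untrained and SBES groups, and the groups overlapped.

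Among the maternally expressed RNAs of the Dlk1-Dio3 region, Meg3 (chr12:109541001-109571726, plus strand) is the first of the cluster and is known as a growth-restraining RNA. Meg3 measured 440, 111 and 122 CPM in sham, 529, 72.8 and 28.5 CPM in untrained and 448, 58.2 and 33.3 CPM in SBES. Its replicate 1 libraries lay between 440 and 529 CPM in all 3 groups, while replicates 2 and 3 were higher in sham than in either injured group.

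Rian (chr12:109603808-109661716), 32.1 kb downstream on the same strand and a host of many small nucleolar RNAs, measured 29.6, 20.2 and 22.1 CPM in sham, 14.5, 24.6 and 16.8 CPM in untrained and 34.8, 28.8 and 12.1 CPM in SBES. In untrained its replicate 1 library was the lowest of the group, the reverse of Meg3. Mirg (chr12:109729764-109749460), which hosts a large microRNA cluster and spans 14 annotated hairpins, was near the limit of the data at 11 to 51 counts per library. It measured 2.51, 1.65 and 2.07 CPM in sham, 2.18, 0.835 and 0.664 CPM in untrained and 5.68, 1.46 and 1.36 CPM in SBES. The exact Poisson 95% interval of its lowest count, 11 in untrained replicate 3, was 5.49 to 19.7, counting error only.

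Snhg11 (chr2:158375638-158386151, plus strand, typed as protein coding in GENCODE M21) measured 457, 140 and 133 CPM in sham, 480, 108 and 44.6 CPM in untrained and 542, 77.5 and 62.9 CPM in SBES. The order of its libraries was close to that of Meg3, from which it lies on another chromosome. Miat (chr5:112213228-112229395, minus strand) measured 5.67, 2.86 and 2.83 CPM in sham, 5.82, 2.00 and 1.33 CPM in untrained and 8.69, 1.39 and 1.61 CPM in SBES, from 20 to 88 counts. Its replicate 1 libraries were again the highest of each group.

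Kcnq1ot1 (chr7:143203458-143296549, minus strand) measured 27.8, 7.24 and 10.9 CPM in sham, 18.05, 11.7 and 4.77 CPM in untrained and 33.5, 5.34 and 5.87 CPM in SBES. Whether counting used strand is not given in the sources used here, so its reads cannot be told apart from those of Kcnq1, the potassium channel gene it overlaps. Kcnq1 itself had 56 counts over all 9 libraries against 1605 for Kcnq1ot1.

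**Figure D1:**
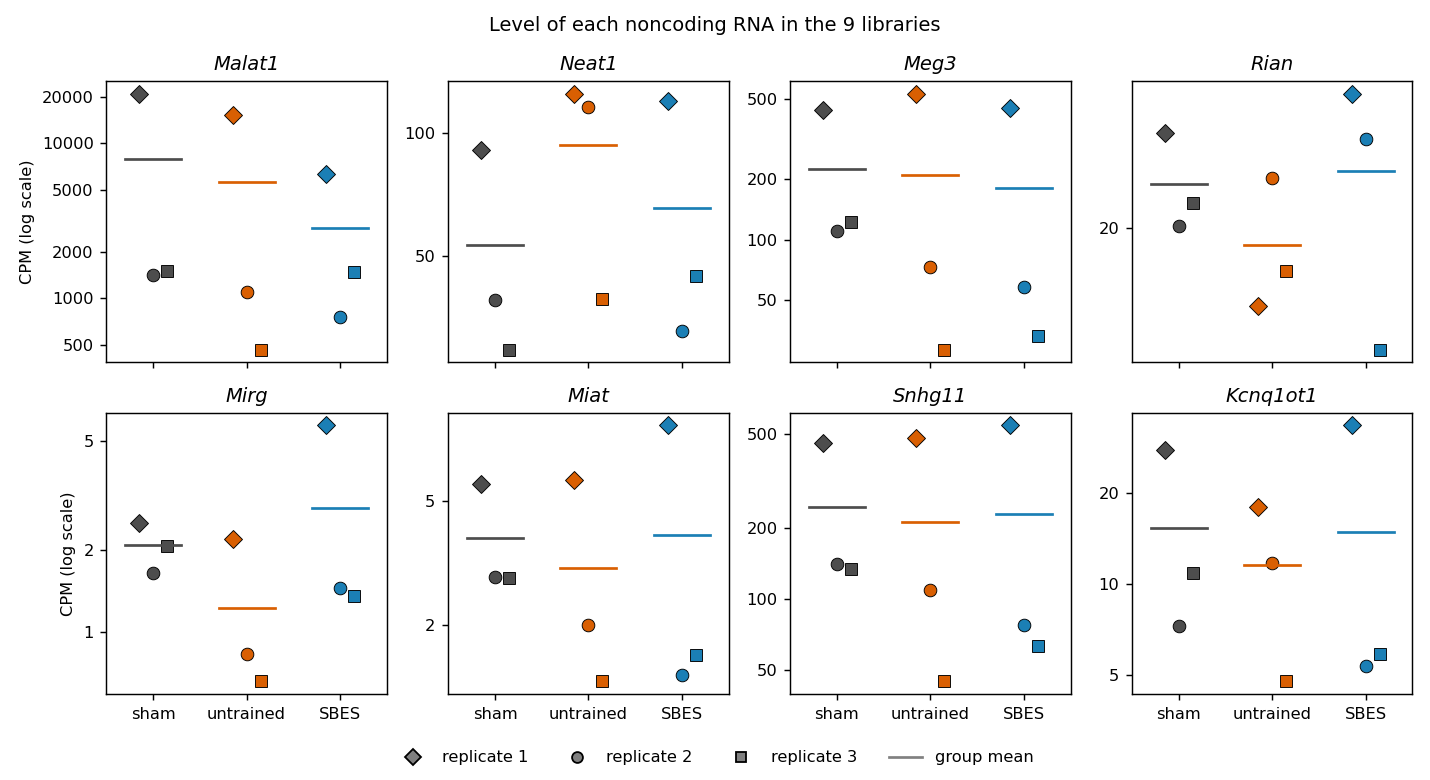
Level of each RNA in CPM (log scale, a separate range per panel) by group, with 1 point per library, the replicate shown by the symbol and a bar at the group mean. Replicate 1 is the highest library of its group in every panel except Rian, where the untrained replicate 1 library is the lowest at 14.5 CPM.

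Levels were compared between genes per exonic length, in FPKM. How fully RNAs without an ordinary poly(A) tail, such as Malat1, were copied was not tested, so the order is one of measured levels only. The median over the 9 libraries was 221 FPKM for Malat1, 16.2 for Snhg11, 6.98 for Meg3, 2.19 for Neat1, 0.72 for Rian, 0.32 for Miat, 0.25 for Mirg and 0.12 for Kcnq1ot1. Malat1 was above Snhg11, Snhg11 above Meg3 and Neat1 above Rian in 9 of 9 libraries. Rian was above Miat, and Mirg above Kcnq1ot1, in 8 of 9. The order of Meg3 and Neat1 held in 6 of 9 libraries and that of Miat and Mirg in 7, so the order of these neighbours changed between libraries.

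The spread over libraries differed among the members. The SD of the log2 level over the 9 libraries was 1.94 for Malat1, above that of 99.9% of genes tested, 1.61 for Meg3 and 1.35 for Snhg11. It was 0.99 for Kcnq1ot1, 0.87 for Neat1, 0.85 for Miat and 0.71 for Mirg. Rian had the smallest at 0.50, above 74.3% of genes, and the median gene had 0.37. With total-count scaling Rian had 0.43, above 47.4% of genes, and on log2(FPKM + 0.1) 0.37, above 31.1%, where the median gene had 0.44 on either scale. Kcnq1ot1, the lowest in FPKM, had 0.47 on that FPKM scale, above 56.3% of genes. Its levels of 0.06 to 0.27 FPKM are close to the added 0.1, which narrows the spread of low genes. With total-count scaling Kcnq1ot1 had 0.82.

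Replicate 1 was set against the mean of replicates 2 and 3 in each group. In SBES this sets the 10 Hz library against those of 15 and 20 Hz, so the excess there cannot be told apart from frequency. Malat1 was 14.4-fold higher in the sham replicate 1 library, 21.3-fold in untrained and 5.97-fold in SBES, and by the smallest of its 3 log2 differences it ranked first of 15893 genes. Meg3 was 3.78-, 11.5- and 10.1-fold higher in the same order and ranked 7th, and Snhg11 was 3.34-, 6.85- and 7.72-fold higher and ranked 11th. So sham had the smallest excess for Meg3 and Snhg11, and SBES the smallest for Malat1.

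Kcnq1ot1 was 3.01-, 2.31- and 5.58-fold higher in replicate 1, Neat1 2.65-, 1.84- and 3.10-fold, Miat 1.84-, 2.95- and 4.61-fold and Mirg 1.28-, 2.15- and 3.24-fold. Rian was 1.39-, 0.719- and 1.83-fold. In all, 7 of 8 members were above in all 3 groups, against 22.5% of all genes tested, and 4 of 8 were at least 2-fold above in all 3, against 0.938%. Since the members were proposed from this pattern, these counts support nothing beyond it. With libraries scaled by total count alone, the sham value of Rian became 0.935-fold and that of Mirg 0.921-fold; that scaling moves the median gene by -0.52 (log2) in sham, -0.095 in untrained and -0.42 in SBES.

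**Figure D2:**
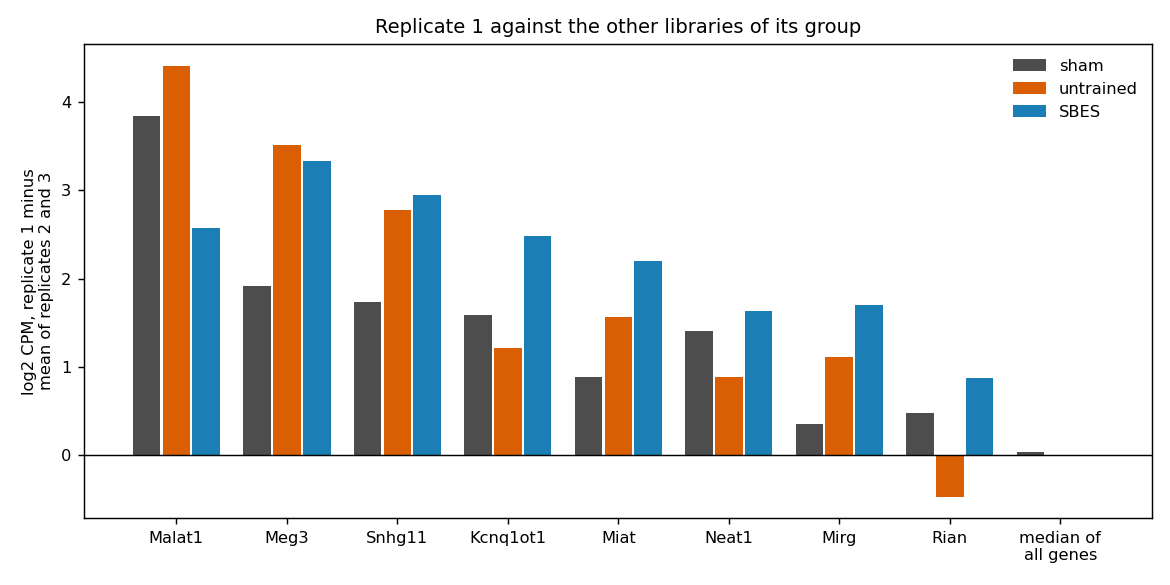
Bars give the log2 level in replicate 1 minus the mean log2 level of replicates 2 and 3, for each RNA and group, with the median of all genes tested at the right. Malat1, Meg3 and Snhg11 are highest, Rian is negative in untrained and the median gene is near 0; under scaling by total count alone Rian and Mirg turn negative in sham.

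Other gene classes were set beside the members for the same measure. Leaving out the members, 9 of 435 lincRNA genes tested (2.07%) were at least 2-fold higher in replicate 1 in all 3 groups, against 0.836% of 13881 protein-coding genes. A list of 19 other long noncoding RNAs had medians of 0.07 in sham, 0.09 in untrained and 0.24 in SBES (log2, replicate 1 minus the others), where the 8 members had 1.499, 1.39 and 2.34. Of 20 mRNAs known for retained introns, 16 were above in all 3 groups, with medians of 0.63, 0.94 and 0.58. The 22 speckle proteins, several of which are also on that list, had medians of 0.50, 0.73 and 0.29, and the 20 paraspeckle proteins 0.05, -0.08 and 0.09.

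Other contents of the replicate 1 libraries also differed from the rest of their groups. The 13 mitochondrially encoded genes had medians of 2.02 in sham and 1.78 in SBES but -0.16 in untrained, where Malat1 had its largest excess. Pan-neuronal markers (18 genes) had 0.44, 0.18 and 0.77 and ribosomal proteins (40 genes) 0.58, 0.13 and 0.25, positive in each group as for the members, with 9 of 18 and 20 of 40 genes above in all 3. Motor neuron markers (14 genes) had -0.52, -0.77 and 0.15, oligodendrocyte markers (16 genes) 0.06, -0.75 and -0.13, and microglia markers (12 genes) 1.34, -0.17 and -0.95. The TMM factor was 0.727 in sham replicate 1 and 0.760 in SBES replicate 1. The part of these in the members' levels was not tested.

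**Figure D3:**
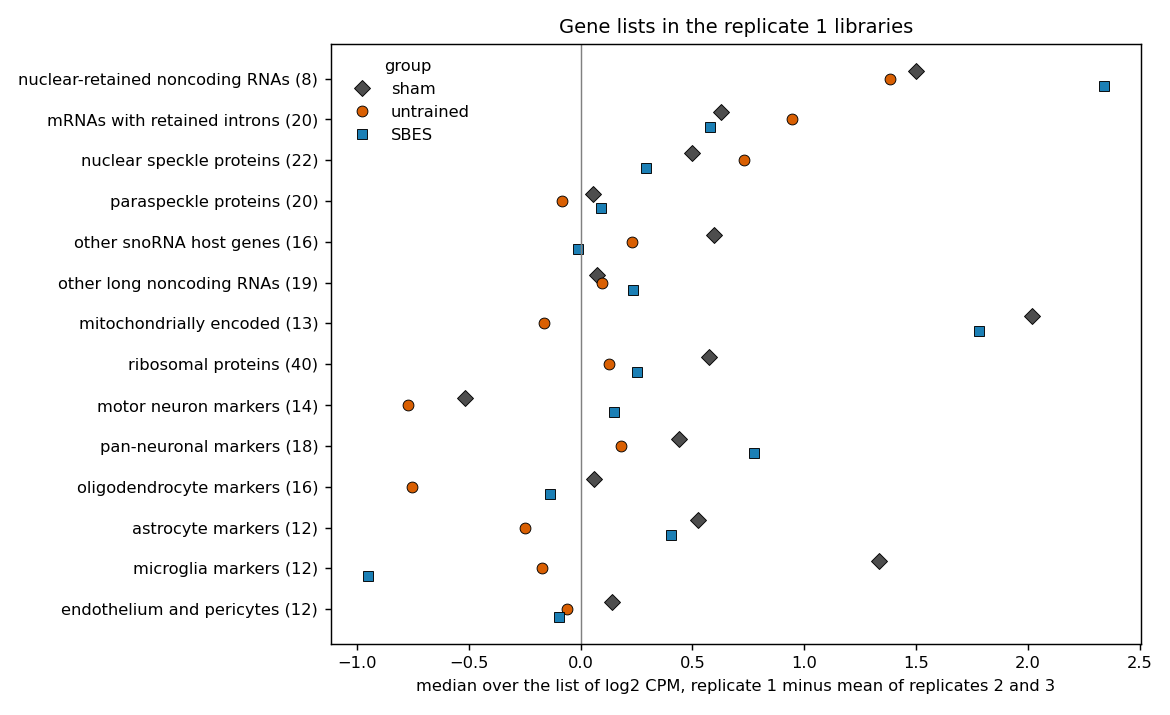
Median log2 difference of replicate 1 from the other libraries of its group, for each gene list (number of genes tested in brackets), with 1 point per group. The members lie at 1.39 to 2.34, mRNAs with retained introns at 0.58 to 0.94, and mitochondrial genes are high in sham and SBES but not in untrained.

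Ratios within a library, in counts per exonic base, do not depend on the scaling of that library. The ratio of Meg3 to Snhg11 was 0.454, 0.373 and 0.431 in sham, 0.520, 0.317 and 0.301 in untrained and 0.390, 0.354 and 0.249 in SBES. It spanned 2.08-fold over the 9 libraries although each of the pair varied more than 10-fold in level. The ratio of Meg3 to Rian, its neighbour on the same strand, was 26.3, 9.71 and 9.72 in sham, 64.6, 5.23 and 3.01 in untrained and 22.8, 3.57 and 4.85 in SBES, a span of 21.5-fold. In replicates 2 and 3 this ratio was 9.71 or more in both sham libraries and at most 5.23 in the 4 injured ones.

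The ratio of Malat1 to Neat1 was 681, 107 and 150 in sham, 364, 28.2 and 35.2 in untrained and 156, 68.1 and 98.0 in SBES, a span of 24.2-fold. Replicate 1 had the highest ratio of each group, and untrained had the lowest among replicates 2 and 3. The third pair of neighbours on 1 strand, Rian and Mirg, spanned 4.82-fold, close to the 4.69-fold of Malat1 and Snhg11 on different chromosomes. Meg3 and Snhg11 are also the most alike of the 28 pairs over 9 libraries (r = 0.993), so their narrow span is a description of a pair picked for it.

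**Figure D4:**
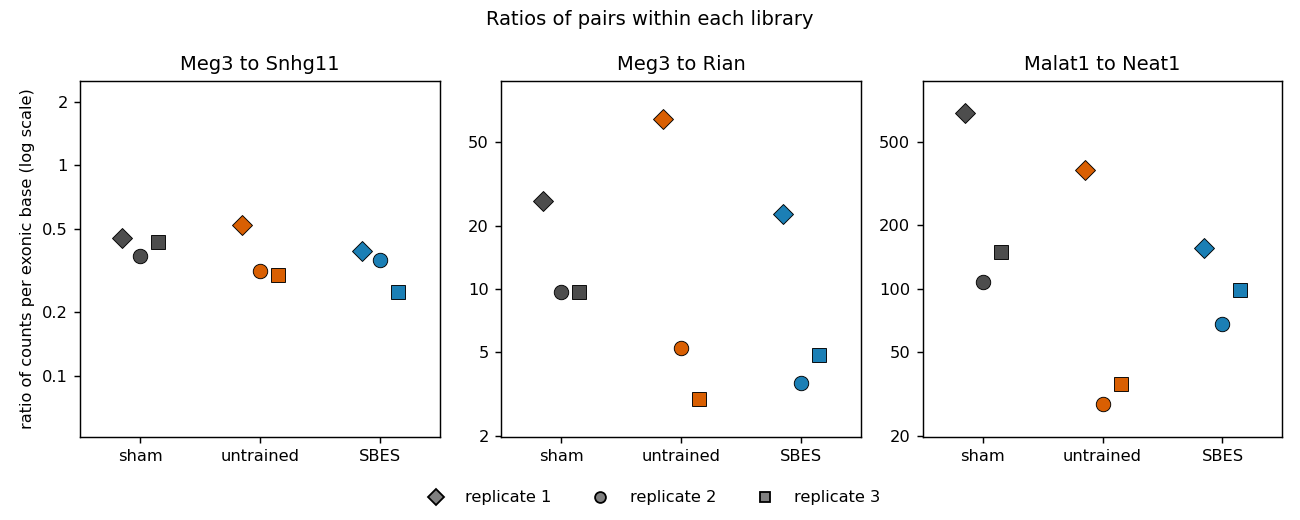
Ratio of counts per exonic base for 3 pairs of RNAs in each library (log scale, panels spanning the same fold range), by group, with the replicate shown by the symbol. Meg3 to Snhg11 spans 2.08-fold, Meg3 to Rian 21.5-fold and Malat1 to Neat1 24.2-fold.

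Likeness between members was described by Pearson's r of log2 CPM, with no test, because the replicate 1 libraries stand apart and the libraries share scaling. Over the 6 libraries without replicate 1, Meg3 and Snhg11 had r = 0.975 (Spearman's coefficient 0.943), Miat and Snhg11 r = 0.914 (Spearman's 0.943) and Meg3 and Miat r = 0.892 (Spearman's 0.886). Malat1 had r = 0.606 with Meg3, 0.729 with Snhg11, 0.0564 with Neat1 and -0.141 with Rian over the same 6. Meg3 and Rian had r = 0.577. The median of the 28 pairs was 0.591 over 6 libraries and 0.783 over 9, so part of the pooled likeness rests on replicate 1.

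The genes most like each member were taken by r over the 9 libraries and are given with r over the 6 libraries without replicate 1. For Meg3 they were Cttnbp2, a cortactin-binding protein of dendritic spines (0.988 over 9 and 0.981 over 6), Zranb2, a splicing factor (0.982 and 0.920), and Kalrn, a guanine nucleotide exchange factor of synapses (0.976 and 0.888). Snhg11 shared Zranb2 (0.985 and 0.930) and Cttnbp2 (0.978 and 0.961) and added Unc5c, a netrin receptor (0.983 and 0.906). Miat shared Kalrn (0.983 and 0.931) and Zranb2 (0.970 and 0.883) and added Cfdp1 (0.970 and 0.912). So 3 genes, Cttnbp2, Zranb2 and Kalrn, appeared for more than 1 of Meg3, Snhg11 and Miat.

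For Malat1 the closest were Col11a1, a fibrillar collagen (0.987 and 0.932), Ccdc25 (0.984 and 0.900) and Gripap1 (0.978 and 0.926). For Neat1 they were Krcc1 (0.979 and 0.967), Yeats2 (0.973 and 0.954) and Inpp4b, a phosphoinositide phosphatase (0.965 and 0.951). For Kcnq1ot1 they included Cntnap5a (0.990 and 0.972) and Gria4, an AMPA receptor subunit (0.985 and 0.968). For Rian they were Eif5a2 (0.955 and 0.936), Pik3cb (0.952 and 0.924) and Myo5a, a transport myosin (0.945 and 0.948), and for Mirg Oprm1, the mu opioid receptor (0.954 and 0.854), Sdk2 (0.945 and 0.914) and Plekha5 (0.945 and 0.783). The closest of 15893 genes have high r by their selection.

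Groups were compared with edgeR's quasi-likelihood test and Benjamini-Hochberg adjustment over the 15893 genes, and a gene was called at an adjusted p under 0.05. Untrained against sham asks what injury without stimulation does. None of the 8 members was called, with a background of 0.0% of genes called, and none had an unadjusted p under 0.05, where 4.45% of genes (707) did. DESeq2 called 14 genes (0.0856%) and no member but gave no p for Malat1 in any of the 3 comparisons. Of the members 7 had a negative log2 fold change, with a median of -0.33 beside -0.01 for all genes. Without sham replicate 1 only 2 were negative and the median was 0.51, and with total-count scaling 5 were negative. Neat1 was 0.82 (SE 0.56, adjusted p = 1.00), from 53.2 ± 33.1 CPM in sham to 93.5 ± 47.1 CPM in untrained (SD, n = 3 each), with overlapping groups. Malat1 was -0.49 (SE 1.26) and Mirg -0.76 (SE 0.62).

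SBES against untrained asks what stimulation does after injury. No member was called (background 0.0%), and no member had an unadjusted p under 0.05, beside 5.37% of genes (854). DESeq2 called 27 genes (0.171%), none of them a member. Mirg had the smallest edgeR p among the members, with a log2 fold change of 1.17 (SE 0.62, adjusted p = 0.959), from 1.23 ± 0.831 to 2.83 ± 2.47 CPM. It had 15 or fewer counts in 2 of the untrained libraries. Malat1 was -0.99 (SE 1.27) and Neat1 -0.51 (SE 0.55).

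SBES against sham sets the stimulated injured cord beside the uninjured one. No member was called, where 0.346% of genes (55) were, or 0.831% (132) with the replicate number as a block, which also called no member. No member had an unadjusted p under 0.05, where 9.31% of genes (1480) did. With the block, Meg3 was -1.02 (SE 0.36, adjusted p = 0.269 by edgeR) in place of -0.32, Snhg11 -0.60 (SE 0.30, adjusted p = 0.462) in place of -0.10, and Malat1 -0.76 (SE 0.43, adjusted p = 0.534). Malat1 was lower in SBES than in sham in each of the 3 same-numbered pairs, by little in the third (1474 against 1489 CPM). That depends on the numbering, since SBES replicate 3 was above sham replicate 2 (1474 against 1409 CPM). Those 2 libraries also deviated together (r = 0.168). DESeq2 called 276 genes (1.69%) and no member. Malat1 averaged 7911 ± 11192 CPM in sham and 2838 ± 3010 CPM in SBES (SD, n = 3 each), a log2 fold change of -1.48 (SE 1.29, adjusted p = 0.80) with overlapping groups. With no filter on low counts the edgeR fit gave Malat1 -1.44 with an SE of 0.32 and an adjusted p of 0.000943, the only member called under any alternative tried.

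The groups overlapped for each of the 8 members in each of the 3 comparisons, which share groups and are not independent. Among all genes tested, 9.76% had groups that did not overlap when untrained was set against sham, 10.4% for SBES against untrained and 13.8% for SBES against sham.

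Leaving out the replicate 1 libraries of all groups left 2 libraries per group, in SBES those of 15 and 20 Hz, and SE values of 0.32 to 0.49 for the members. The libraries left out are those whose Malat1 level was in view when the members were chosen. The SE and p-values of members in this fit depend on that choice and are given as description only. That fit called 47 genes (0.29%) for untrained against sham, 13 (0.0802%) for SBES against untrained and 581 (3.58%) for SBES against sham, and no member was among them. Its unadjusted edgeR p was under 0.05 for 5 of 8 members in untrained against sham and 3 in SBES against sham. In SBES against untrained it was so for 1. The share of all genes was not counted in any of these comparisons, so the member counts have no background to be read against. Meg3 was then -1.17 (SE 0.37, adjusted p = 0.318 by edgeR) in untrained against sham, where all libraries gave -0.09. In SBES against sham it was -1.34 (SE 0.37, adjusted p = 0.0771 by edgeR), where all libraries gave -0.32. Snhg11 was -0.81 (SE 0.32) and -0.96 (SE 0.32) in the same comparisons, with adjusted p values of 0.482 and 0.154 by edgeR. In replicates 2 and 3, both sham libraries were above all 4 injured ones for Meg3, Snhg11, Miat and Mirg, 4 of 8 members beside 12.1% of all genes tested (1918). Summed motor neuron markers split likewise, at 877 and 1228 CPM in sham against 413 to 512 CPM after injury. So did pan-neuronal markers, at 10289 and 11384 CPM against 7438 to 9296 CPM. Their part in the members' split was not tested. Meg3, Snhg11 and Miat also varied together over these 6 libraries (r = 0.892 to 0.975), so they are not separate observations. Mirg had 38 or fewer counts in each. Within replicate 1 the order of these 4 members was different, with the untrained library the highest in Meg3 and the SBES library the highest in the other 3. Neat1 in the fit without replicate 1 was 1.21 (SE 0.39, adjusted p = 0.326 by edgeR) in untrained against sham and -1.03 (SE 0.39, adjusted p = 0.432) in SBES against untrained.

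**Figure D5:**
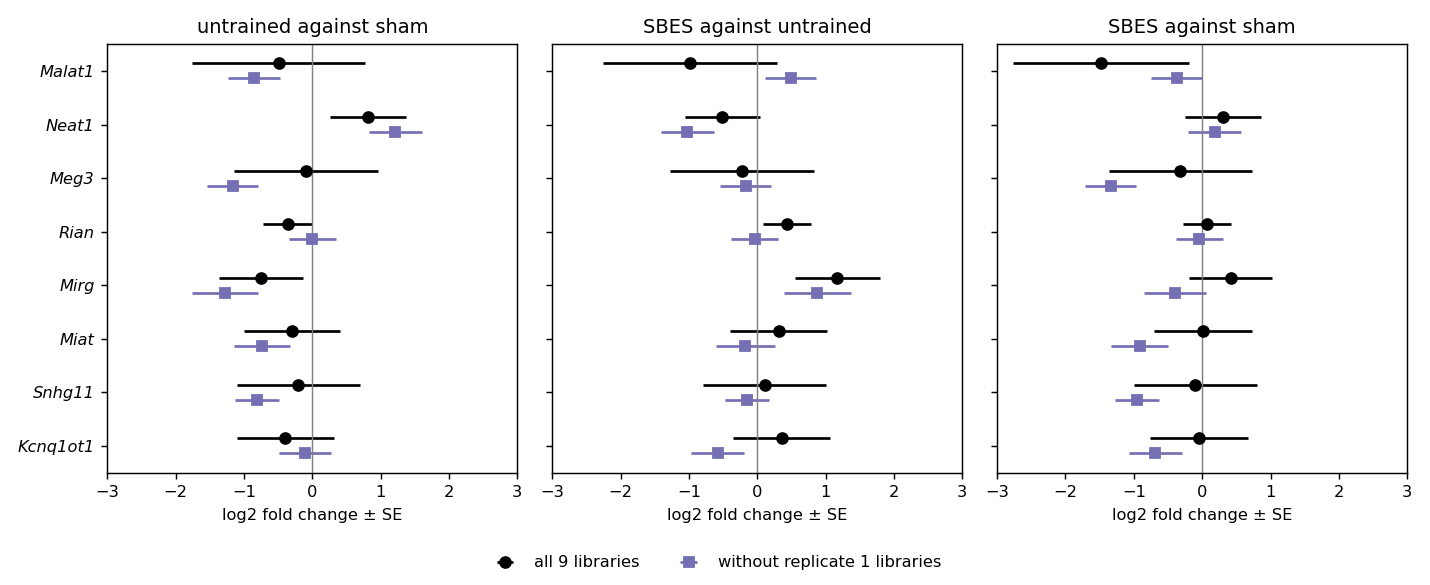
Log2 fold change (bars: SE) of each RNA in the 3 comparisons, from edgeR on all 9 libraries (circles) and without the replicate 1 libraries (squares). Intervals shrink without replicate 1, and the values of Meg3 and Snhg11 against sham lie further below 0, but no member passed an adjusted p of 0.05 in either fit.

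Coding genes of the same regions and partners of these RNAs were followed from lists. In the Dlk1-Dio3 region 3 of 5 coding genes could be tested and none was called in any comparison. Dlk1, a Notch-related membrane protein, averaged 7.12 ± 2.53 CPM in sham, 6.47 ± 1.62 CPM in untrained and 12.02 ± 1.97 CPM in SBES, a log2 fold change of 0.89 (SE 0.31, adjusted p = 0.896 by edgeR) in SBES against untrained. Begain, a postsynaptic protein gene at the edge of the region, was 0.59 (SE 0.21, adjusted p = 0.896 by edgeR) in the same comparison. Rtl1 had 55 counts and Dio3 1 count over all libraries, too few to be tested.

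In the Kcnq1 region 9 of 13 genes were tested and none was called. Cdkn1c, a cyclin-dependent kinase inhibitor that Kcnq1ot1 silences on the paternal copy, averaged 23.9 ± 11.3 CPM in sham, 12.3 ± 5.77 CPM in untrained and 11.1 ± 0.685 CPM in SBES. Its log2 fold change was -1.11 in SBES against sham (SE 0.38, adjusted p = 0.323 by edgeR) and -0.97 in untrained against sham (SE 0.37, adjusted p = 1.00). Kcnq1ot1 was -0.04 (SE 0.71) and -0.40 (SE 0.71) there.

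None of the 20 paraspeckle proteins, 22 speckle proteins and 20 mRNAs with retained introns was called in any comparison. Nono, Sfpq, Pspc1 and Tardbp, RNA-binding proteins of paraspeckles, had log2 fold changes from -0.14 (Pspc1, SE 0.22) to 0.09 (Nono, SE 0.24) in untrained against sham, where Neat1 had 0.82. Srsf7, a splicing factor, averaged 82.7 ± 26.4 CPM in untrained and 54.2 ± 4.31 CPM in SBES (-0.61, SE 0.24, adjusted p = 0.914 by edgeR). Srsf5, another splicing factor, was 0.66 in SBES against sham (SE 0.26, adjusted p = 0.454 by edgeR).

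Among the cell type markers 3 genes were called, all in SBES against sham by edgeR. Calca, the CGRP precursor gene of motor neurons, was -2.54 (SE 0.41, adjusted p = 0.0287), Ugt8a, an enzyme of myelin lipid synthesis, -2.33 (SE 0.32, adjusted p = 0.0149), and Slc2a1, a glucose transporter of endothelium, 1.56 (SE 0.27, adjusted p = 0.0366). All 3 calls ended without sham replicate 3 (adjusted p = 0.166, 0.122 and 0.230) or without SBES replicate 3 (0.124, 0.0869 and 0.122). Without sham replicate 2 those of Calca (0.0731) and Slc2a1 (0.112) ended, and without sham replicate 1 that of Slc2a1 (0.0692).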

How the data were processed

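Smart-seq2 libraries of 9 mouse samples were analysed from 1 table. Per the labels' protocols, the authors aligned reads with Hisat2 2.0.1 and counted genes with HTSeq 0.6.1, and the submitters' processing notes give mm10 as the build. For the annotation release and the strand setting, the sources used here say nothing. The deposited columns are whole-number counts and, per the file headers, FPKM, which the authors scaled by exonic length and library total. From the counts, edgeR 4.0.16 in R 4.3.3 (filterByExpr, TMM, quasi-likelihood test, all 9 libraries in a single fit, no covariates) gave log2 fold changes. The SE is the absolute log2 fold change over the square root of F. CPM is per TMM-adjusted library total. Differences between replicates used log2(CPM + 0.5), and likeness used log2 CPM with a prior count of 2. Alternatives were DESeq2 1.42.0, limma 3.58.1, other scalings and filters, a replicate block and left-out libraries. The scripts were tested on simulated data.

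The members, lists and motifs were chosen with earlier results of these data known. Named genes are the 8 members, any called list gene, the smallest p of each list, fixed neighbours and partners, and the 3 genes most like each member; a few of them are not reported here. In SBES against sham, same-numbered libraries deviated together (r = 0.268, 0.159 and 0.144 over genes), and the replicate numbers come from the titles, so the blocked count is given there. Sham replicate 2 deviated with SBES replicate 3 as much (r = 0.168), so the pairing is not singled out beyond replicate 1. In SBES the replicate number is also the stimulation frequency.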

Additional observations from a re-analysis of the deposited data

How the results depend on the processing

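Depth limits Mirg (11 to 51 counts per library) and Miat (20 to 88), and 3 libraries per group limit every comparison. The number of called genes depended on the setting; the cause was not tested. In untrained against sham, where edgeR called 0, it was 1 with total-count scaling, 134 with no filter, 14 with DESeq2, 1 with limma on log2(FPKM + 0.1), 4 with the replicate block and 47 without the replicate 1 libraries. In SBES against untrained, also 0, it was 186 with no filter, 27 with DESeq2 and 13 without replicate 1, and the replicate block gave 0. In SBES against sham, 55, it was 517 with no filter, 276 with DESeq2, 21 and 30 with limma on log2(FPKM + 1) and log2(FPKM + 0.1), 132 with the replicate block and 581 without replicate 1. Leaving out a single library gave 0, 0 to 1 and 0 to 86 calls in the 3 comparisons. In SBES against sham it was 0 without sham replicate 3, 6 without sham replicate 2, 29 without sham replicate 1, 4 without SBES replicate 3 and 86 without SBES replicate 1. The replicate block turned 0 member values into calls. Same-numbered libraries deviated together in each pair only for SBES against sham, where sham replicate 2 was also like SBES replicate 3 (r = 0.168).

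Members kept their direction in 295 of 360 values under alternatives, and 1 passed the threshold, Malat1 with no filter. Values of the other sign were as follows. In untrained against sham, total-count scaling gave Meg3 0.23 and Snhg11 0.11. In SBES against untrained, total-count scaling gave Miat -0.032, Snhg11 -0.28 and Kcnq1ot1 -0.025; limma gave Miat -0.013, Snhg11 -0.16 and Kcnq1ot1 -0.012 with a pseudocount of 1 and -0.077, -0.16 and -0.11 with 0.1; without replicate 1 Malat1 was 0.49, Rian -0.04, Miat -0.18, Snhg11 -0.15 and Kcnq1ot1 -0.58. In SBES against sham, Rian was -0.020 with limma at 0.1, -0.014 with the replicate block and -0.044 without replicate 1, Mirg was -0.40 without replicate 1, and Miat was -0.093 with total-count scaling, -0.044 and -0.26 with limma, -0.37 with the block and -0.91 without replicate 1.

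Leaving out a single library turned the sign of 40 of the values. In untrained against sham, Malat1 ran from -3.29 to 1.98, Meg3 from -2.10 to 0.88, Miat from -1.12 to 0.12, Snhg11 from -1.63 to 0.65, Kcnq1ot1 from -0.83 to 0.37. In SBES against untrained, Malat1 ran from -2.31 to 1.81, Meg3 from -2.18 to 1.78, Miat from -1.003 to 1.13, Snhg11 from -1.57 to 1.52, Kcnq1ot1 from -1.03 to 0.79. In SBES against sham, Malat1 ran from -2.79 to 0.98, Neat1 from -0.42 to 0.95, Meg3 from -2.27 to 0.64, Rian from -0.20 to 0.41, Mirg from -0.52 to 0.76, Miat from -1.28 to 0.43, Snhg11 from -1.77 to 0.75, Kcnq1ot1 from -1.40 to 0.71. The SD over libraries was 0.77 for Neat1, 0.37 for Rian, 0.63 for Miat and 0.47 for Kcnq1ot1 on log2(FPKM + 0.1), where the added 0.1 narrows the spread of low genes. It was 0.82 for Kcnq1ot1 with total-count scaling. Likeness without replicate 1 was 0.606 for Malat1 and Meg3, 0.729 for Malat1 and Snhg11, 0.0564 for Malat1 and Neat1, 0.975 for Meg3 and Snhg11, 0.892 for Meg3 and Miat, 0.914 for Miat and Snhg11 and 0.776 for Snhg11 and Kcnq1ot1; with total-count scaling Miat and Snhg11 had 0.971.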
